A study of Mus musculus with 8 samples.

Results

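Connexins are membrane proteins that assemble into rings of subunits, and rings of neighbouring cells dock to form gap junctions, through which ions and small metabolites pass from cell to cell. Pannexins have a similar fold but form channels that open to the outside of 1 cell and release ATP, which then acts on purinergic receptors. Stratified epithelia use several connexins at once, and Gja1 (Cx43), Gjb2 (Cx26), Gjb6 (Cx30) and Gjb5 (Cx31.1) are known from keratinocytes of skin and mucosa, as is the channel gene Panx1. These 5 genes, taken by name as the gap junction and pannexin genes of stratified epithelium, were followed in sorted mouse esophageal epithelium, and all 5 were among the 55276 gene symbols of the count table. They were chosen with earlier results of these data known.

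The cells came from C57BL6 mice of 14 to 15 weeks, 2 female and 2 male animals, and the labels give no genetic change or drug. The epithelium had been peeled from the muscle. Live cells that excluded DAPI and carried integrin beta-1 were parted by Cyto-ID, a dye of autophagic vesicles, and by the titles each animal gave a Cyto-ID Low and a Cyto-ID High library, so that there were 8 libraries, 4 per fraction. The series asks how basal cells rich in autophagic vesicles differ from the rest. The libraries held 26285150 to 29301054 counts.

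Markers of the layers differed between the fractions. The summed level of 9 basal keratinocyte genes, among them Krt5, Trp63 and Itgb1 itself, was 21006 to 24906 CPM (counts scaled to library size, after TMM correction between libraries) in Low and 2778 to 4482 CPM in High. The sum of 10 suprabasal genes, such as Krt4 and Krt13, was 9175 to 26376 CPM in Low and 142437 to 245202 CPM in High. Every connexin value below thus comes from fractions that also differed in these markers, whose part in the connexin differences was not tested, and in bulk RNA fewer cells of a type and less RNA per cell cannot be told apart.

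The 250 bases before the start site of each of the 5 genes are shown because Gjb2 and Gjb6 rose together while Gja1 moved least and Panx1 moved the other way. All 5 had an entry in RefSeq's GRCm38.p6 set. Each is written 5′ to 3′ on the strand of the gene, and capitals mark matches on either strand. The motif of AP-1 factors was searched as TGANTCA and the GC box bound by Sp factors as GGGCGG. The TATA box of core promoters was searched as TATAAA, and the box bound by NF-Y as CCAAT. For factors of the KLF family the letters were GGGTGTG, for the TEAD family they were GGAATG, and for the epithelial GRHL family they were AACNGGTT. No match overlapped with another, and the TEAD letters were in none of the 5 windows.
Gjb2: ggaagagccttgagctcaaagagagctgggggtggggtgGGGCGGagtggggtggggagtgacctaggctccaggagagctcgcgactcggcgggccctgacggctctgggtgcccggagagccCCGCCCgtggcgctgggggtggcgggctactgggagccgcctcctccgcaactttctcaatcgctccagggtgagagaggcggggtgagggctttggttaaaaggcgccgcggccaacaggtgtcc
Gjb6: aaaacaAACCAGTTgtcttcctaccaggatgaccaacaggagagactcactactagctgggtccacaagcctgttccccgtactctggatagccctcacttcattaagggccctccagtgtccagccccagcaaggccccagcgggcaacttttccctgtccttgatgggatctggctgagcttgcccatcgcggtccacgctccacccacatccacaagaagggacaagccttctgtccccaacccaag
Gjb5: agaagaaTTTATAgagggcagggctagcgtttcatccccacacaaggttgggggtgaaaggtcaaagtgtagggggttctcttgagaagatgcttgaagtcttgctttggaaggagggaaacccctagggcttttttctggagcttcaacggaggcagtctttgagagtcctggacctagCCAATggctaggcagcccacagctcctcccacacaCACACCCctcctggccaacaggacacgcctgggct
Gja1: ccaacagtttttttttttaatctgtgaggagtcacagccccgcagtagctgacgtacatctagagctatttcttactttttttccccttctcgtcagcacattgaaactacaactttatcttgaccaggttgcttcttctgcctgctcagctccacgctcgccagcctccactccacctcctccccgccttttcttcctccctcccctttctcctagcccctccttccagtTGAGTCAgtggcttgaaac
Panx1: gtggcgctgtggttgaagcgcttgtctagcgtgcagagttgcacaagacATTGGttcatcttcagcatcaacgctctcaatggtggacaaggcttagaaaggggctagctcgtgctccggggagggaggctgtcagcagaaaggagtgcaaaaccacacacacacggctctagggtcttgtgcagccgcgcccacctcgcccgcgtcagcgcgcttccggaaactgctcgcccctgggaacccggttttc

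The windows lie on the minus strand at chr14:57104703-57104952 for Gjb2, chr14:57133612-57133861 for Gjb6, chr4:127358165-127358414 for Gjb5 and chr9:15045479-15045728 for Panx1, and on the plus strand at chr10:56377050-56377299 for Gja1. Although Gjb2 and Gjb6 lie 18.6 kb apart, with 1 annotated gene between them, their windows shared none of the 7 motifs. The Gjb2 window was 69.2% G and C and held 2 GC boxes; 32.7% of 32851 promoter windows of this length contain at least 1. The Gjb6 window, 56.8% G and C, held the GRHL letters, present in 1.79% of all windows, 244 to 237 bases before the start. In Gja1 an AP-1 match lay 19 to 13 bases before the start, and 6.75% of all windows have one. Gjb5 held CCAAT, the KLF letters (6.93% of windows) and, far from the start, the TATA letters, while Panx1 held only CCAAT, which is in 33.8% of windows. The median window was 52.4% G and C. A match describes letters and not a bound factor.

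Of the 5 genes, 4 rose and 1 fell in Cyto-ID High. In edgeR's quasi-likelihood test with sex as a covariate, 23.4% of the 17344 genes tested were called higher and 25.3% lower in High, 48.7% in all (Benjamini-Hochberg adjusted p under 0.05), so a call alone was common in this comparison. The differences ran in log2 from 3.45 for Gjb2 to −1.80 for Panx1, and for each of the 5 the 4 High libraries lay wholly on 1 side of the 4 Low libraries. How many of all the genes tested part the fractions in this way was not counted, so this too is a description.

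Gjb2, whose product Cx26 is a small-metabolite channel known for its part in hereditary deafness and skin disease, had the largest difference of the 5. It lies on the minus strand at chr14:57098600-57104702. In Low, Female1 had 110.4 CPM, Female2 138, Male1 60.3 and Male2 184. In High the same animals had 1046, 1576, 1138 and 1616 CPM. The lowest High library was thus several times above the highest Low library, and the means were 123 ± 52 and 1344 ± 294 CPM (SD, n = 4 each). This is a 10.9-fold rise, 3.45 on the log2 scale with a standard error (SE) of 0.35 (edgeR, adjusted p 4.48e-05).

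Gjb6 encodes Cx30, the closest partner of Cx26 in epithelia, with which it can form mixed channels, and lies at chr14:57123303-57133611 on the minus strand. Its Low libraries had 9.88, 12.2, 4.94 and 13.3 CPM in Female1, Female2, Male1 and Male2, and its High libraries 74.7, 103, 69.9 and 87.7 CPM. Male1 was the lowest in both fractions, as it was in Low for Gjb2. The rise was 8.33-fold, or 3.06 in log2 with an SE of 0.29 (edgeR, adjusted p 3.00e-05), and no High library overlapped with a Low one.

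Gjb5 encodes Cx31.1, a connexin of differentiating keratinocytes, at chr4:127354809-127358181 on the minus strand. It had 7.29, 10.6, 6.43 and 10.4 CPM in the Low libraries of Female1, Female2, Male1 and Male2, and 21.7, 34.6, 24.1 and 44.2 CPM in High. Male2 was the highest in High. The 3.57-fold rise, 1.83 in log2 with an SE of 0.27, passed (edgeR, adjusted p 0.000383).

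Gja1 encodes Cx43, the most widespread connexin of mammalian tissues, and lies on the plus strand at chr10:56377330-56402513. In Low, Female1 had 849.5 CPM, Female2 655, Male1 989 and Male2 791. In High it reached 1209, 1733, 1609.97 and 1376 CPM. The increase within an animal ran from 0.51 on the log2 scale in Female1 to 1.40 in Female2, which had the lowest Low and the highest High library. The rise was 1.81-fold, or 0.86 in log2 with an SE of 0.19 (edgeR, adjusted p 0.00440).

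The Gja1 call depended on how libraries were scaled. With total counts only, which moves the median of all genes by −0.55 on the log2 scale and lowers the share of called genes that were higher from 48.0% to 20.5%, its difference was 0.30 with an SE of 0.18 (edgeR, adjusted p 0.184). Unscaled by TMM, Gja1 ran from 853 to 1163 CPM in Low and from 934 to 1441 CPM in High, so the groups overlapped. Within each animal it was still higher in High, though in Male2 only at 934 against 916 CPM. The other 4 genes kept their direction and their call under total counts, with Gjb2 at 2.86, Gjb6 at 2.48, Gjb5 at 1.23 and Panx1 at −2.36.

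Gja1 is also expressed by fibroblasts, muscle and endothelium. The sum of 7 fibroblast markers was 312 to 484 CPM in Low and 36.9 to 464 CPM in High, and of the 7 only Dcn was called, lower in High. The lowest sum belonged to the High library of Male2, where the 7 muscle markers summed to 1.59 CPM (15.2 to 26.1 in Low), the 6 endothelial markers to 1.44 CPM (11.0 to 21.3 in Low) and Myl1 and Kdr were at 0. Gja1 in that library, at 1376 CPM, lay within the range of the other 3 High libraries. Without TMM scaling it was at 934 CPM there, below the 1139 to 1441 CPM of those 3. Without both libraries of Male2 the Gja1 difference was 0.93 in log2 with an SE of 0.24 (edgeR, adjusted p 0.0120). The part of fibroblasts, muscle and endothelium in the Gja1 difference was not tested.

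Both libraries of Female2, the animal with the largest Gja1 increase, also held transcripts of stomach. The sum of 9 gastric markers, Gkn1 and Pgc among them, was 117 CPM in High Female2 and 19.4 CPM in Low Female2, with 0 of the 9 genes at 0. In the other 6 libraries it was 0.513 to 1.11 CPM, with 4 to 6 of the 9 at 0. Without both libraries of Female2 the Gja1 difference was 0.70 in log2 with an SE of 0.18 (edgeR, adjusted p 0.0243), and Gjb2 was at 3.42, Gjb6 at 3.06, Gjb5 at 1.88 and Panx1 at −1.69, each still called. The part of stomach tissue in these differences was not tested.

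Panx1, the most widely expressed pannexin, fell. It lies on the minus strand at chr9:15002128-15045478, and no exon of the 5 genes overlaps another annotated gene. It was at 14.5, 18.3, 15.7 and 16.8 CPM in the Low libraries of Female1, Female2, Male1 and Male2, and at 4.48, 4.44, 4.54 and 5.40 CPM in High. The High libraries lay close together, on 102 to 119 counts each, against 470 to 667 counts in Low. Panx1 was 3.47-fold lower in High, −1.80 in log2 with an SE of 0.15 (edgeR, adjusted p 2.11e-05). It was lower in 4 of 4 animals, by 1.62 to 2.03 on the log2 scale.

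**Figure D1:**
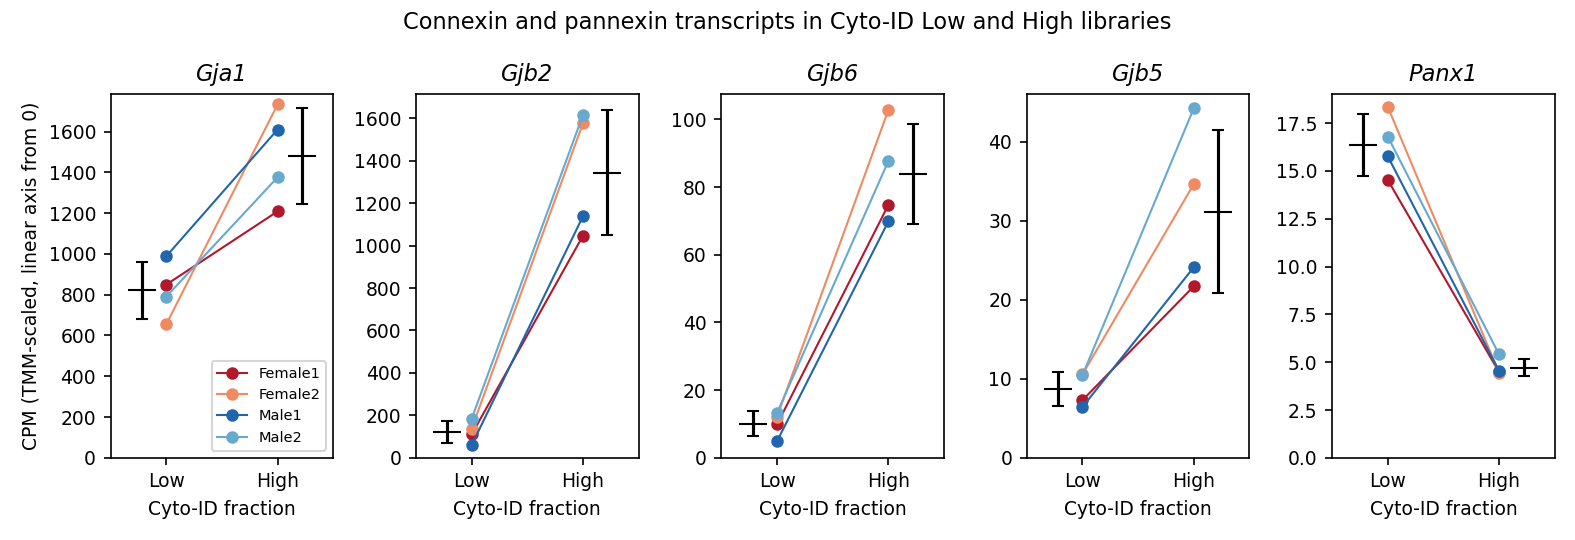
Each panel plots the TMM-scaled CPM of 1 gene (linear axis from 0) in the Low and High library of each of 4 animals, joined by a line, with the mean ± SD of each fraction in black. All lines rise for Gja1, Gjb2, Gjb6 and Gjb5, and all fall for Panx1, whose High libraries lie between 4.44 and 5.40 CPM.

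The difference between fractions was not found to depend on sex. In a fit with an interaction, 0 of 17344 genes passed (0% called, edgeR, 19 at an unadjusted p under 0.05). The male minus female difference in log2 fold change was −0.22 (SE 0.41) for Gja1, 0.09 (SE 0.69) for Gjb2, 0.36 (SE 0.55) for Gjb5, 0.10 (SE 0.58) for Gjb6 and 0.17 (SE 0.33) for Panx1, each at an adjusted p of 1.00 by edgeR. The 19 genes are far fewer than the share of 0.05 expected if no gene differed, so the test was conservative here. With 2 animals per sex, only differences well beyond these errors could pass, and the fit does not show that the sexes are alike.

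The remaining connexin and pannexin genes place these 5 in their family. Of 18 others, 8 passed the filter on low counts; 5 of these were called higher in High, 0 lower and 3 were not called, and their median log2 fold change was 1.74 beside −0.09 over all genes tested. Genes low in both fractions could not pass the filter, so the count is a description.

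Gjb1 (Cx32), best known from liver and Schwann cells, was low but rose from 0.864 ± 0.449 to 8.19 ± 2.23 CPM (SD, n = 4 each), or by 3.23 in log2 with an SE of 0.39 (edgeR, adjusted p 0.000113). The pannexin gene Panx2 rose on few counts. It had 2 to 13 counts per library in Low and 25 to 37 in High, 2.55 higher in log2 with an SE of 0.49 (edgeR, adjusted p 0.00181). Panx2 passed the filter through its High libraries, so this call is a description, and it was not tested where 10 counts were required in every library. Per kilobase of exon the mean levels in High were 0.367 CPM for Panx2 and 0.782 CPM for Panx1.

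The 3 uncalled genes were Gja4 (Cx37), Gja5 (Cx40) and Gjc1 (Cx45), connexins of vessels and muscle. Their log2 fold changes were −0.04 (SE 0.48), −0.12 (SE 0.59) and −0.38 (SE 0.69), with edgeR adjusted p of 0.956, 0.895 and 0.693. All were under 2 CPM in every library, and in the High library of Male2, where the endothelial and muscle markers were lowest, Gja5 had 1 count and Gjc1 had 0; the part of those cells in these values was not tested. Exons of Gja5 overlap those of Gpr89 on the other strand, and the strandedness of the counting is not given in the sources used here.

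**Figure D2:**
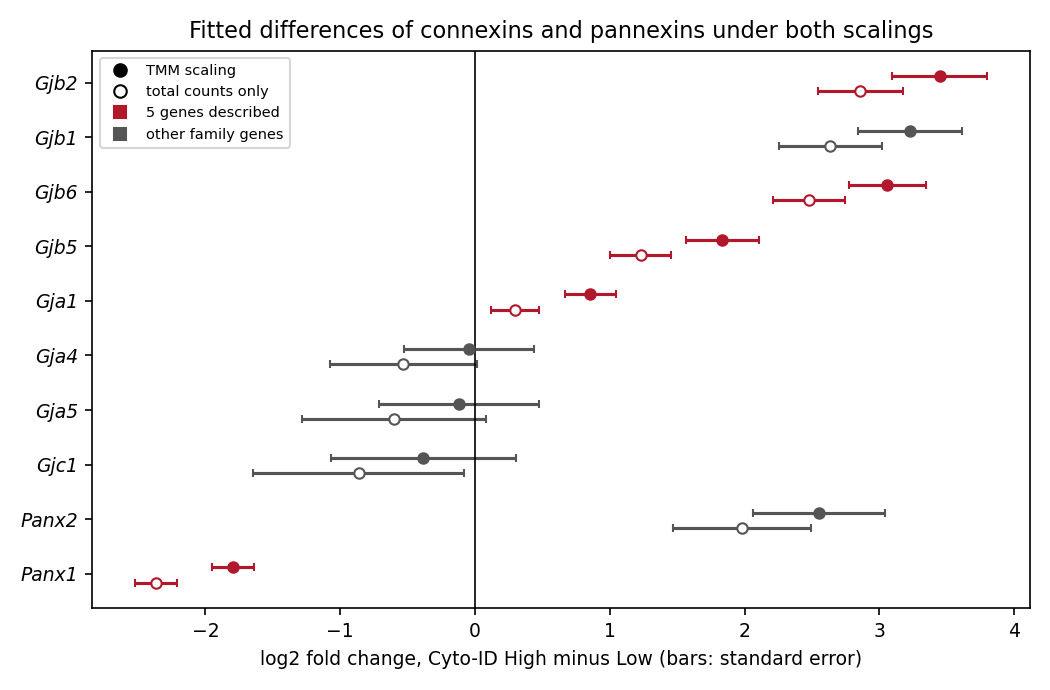
Fitted log2 fold change, Cyto-ID High minus Low, with its standard error, for the 5 genes (red) and 5 other family genes that were tested (grey), under TMM scaling (filled) and total counts only (open). Total counts shift every gene to the left, and of the called connexins shown Gja1 comes closest to 0, at 0.30.

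Gjb2 and Gjb6 lie close to each other on chromosome 14 of GRCm38 and rose by 3.45 and 3.06. Gja3 (a connexin of the lens) lies 40.5 kb from Gjb2 on the other side and had 1 count in 1 library and 0 in the other 7. The effect of neighbourhood itself was not tested.

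Levels of different genes can be compared only per length, and the order changed between fractions. Per kilobase of all annotated exons, Gja1 led in Low at 80.0 ± 13.5 CPM per kb (SD, n = 4), followed by Gjb2 at 51.2 ± 21.5, whose libraries overlapped with those of Gja1. Among the 5, Gjb5 came next at 5.04 ± 1.24, then Gjb6 at 3.77 ± 1.38 and Panx1 at 2.71 ± 0.27 CPM per kb, where Gjb5 and Gjb6, and Gjb6 and Panx1, overlapped.

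In High, Gjb2 led at 559 ± 122 CPM per kb, above Gja1 at 144 ± 23 without overlap. Gjb6 at 31.3 ± 5.5 and Gjb5 at 18.1 ± 6.0 CPM per kb followed, close but without overlap (lowest Gjb6 library 26.1, highest Gjb5 library 25.7), and Panx1 was at 0.782 ± 0.076. Gja1 has 10257 bases of annotated exon but a longest transcript of 3889, and this choice mattered most for it. By longest transcript Gja1 was at 211 ± 36 CPM per kb in Low, without overlap with Gjb2, and at 381 ± 60 in High, where it overlapped with Gjb2. The order of the pair was the same by both lengths.

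The makeup of all connexin counts per kb followed from this. Gja1 made up 49.5% ± 12.1 of them in Low and 17.6% ± 3.1 in High, and Gjb2 30.5% ± 10.0 and 66.5% ± 1.9 (SD, n = 4 each, union of exons). By longest transcript Gja1 went from 71.0% ± 9.4 to 35.5% ± 5.0 and Gjb2 from 17.3% ± 7.0 to 51.3% ± 3.4. Gja1 was the larger share in each Low library and Gjb2 in each High library by both lengths, though in Low Male2 the pair were at 39.1% and 38.8% by union of exons. Gjb6 made up 2.26% ± 0.73 in Low and 3.77% ± 0.38 in High, and Gjb5 3.07% ± 0.67 and 2.13% ± 0.34.

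**Figure D3:**
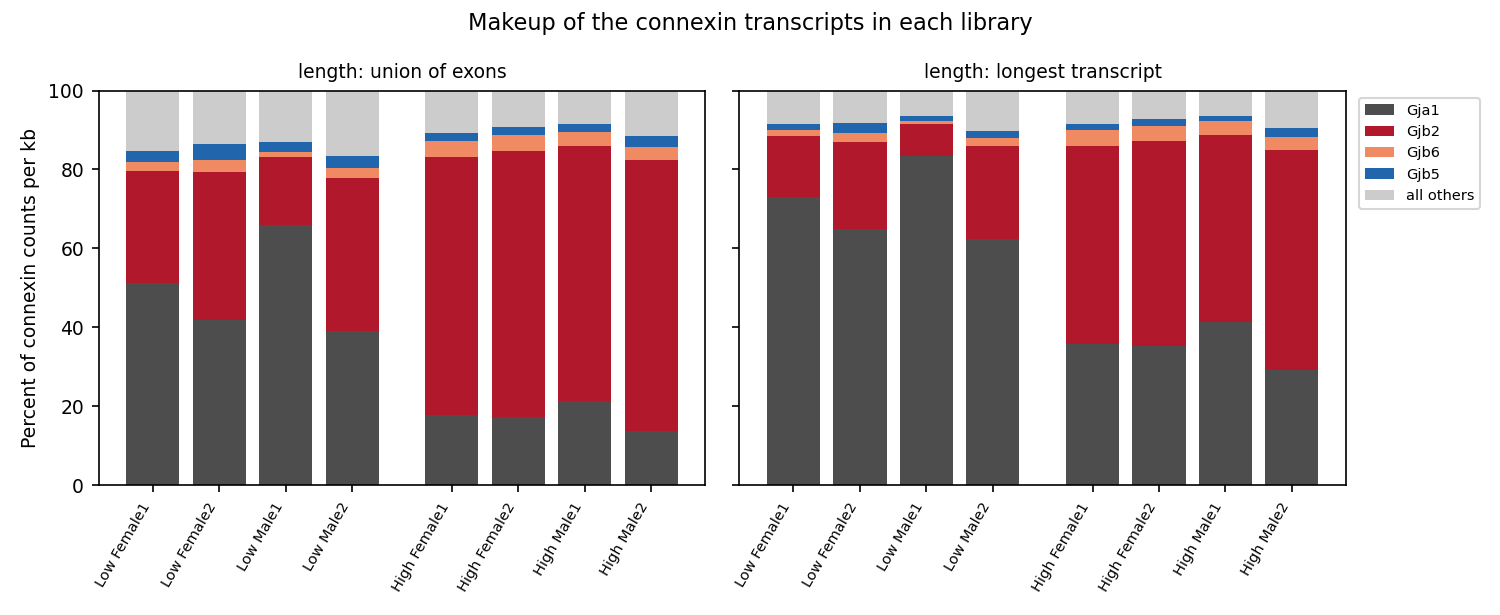
Stacked bars give each connexin's percent of all connexin counts per kb in each of the 8 libraries, with length taken as the union of exons (left) or the longest transcript (right). Gja1 (dark grey) is the largest part of each Low bar and Gjb2 (red) of each High bar.

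Ratios of 2 genes within a library hardly depend on library scaling, so the 10 pairs of the 5 genes were compared between the fractions by an exact two-sided permutation test of 4 against 4 libraries, whose smallest p is 0.0286. How often the ratio of other gene pairs parts the fractions was not counted. In 9 of the 10 pairs p was 0.0286 (exact permutation test, 0.0317 adjusted over the 10 pairs). Paired within the 4 animals, a sign-flip test of these ratios cannot pass 0.05.

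The count ratio of Gja1 to Gjb2, not divided by length, averaged 7.12 in Low and 1.11 in High, a log2 change of −2.68 with an SD of 0.63 between the 4 animals. The ratio of Gja1 to Gjb6 went from 85.5 to 17.7, a log2 change of −2.27. Only the ratio of Gja1 to Gjb5 did not pass, with a log2 change of −0.96, the same sign in 4 of 4 animals and an exact permutation p of 0.0571.

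Gjb2 and Gjb6 shifted least against each other. The mean log2 ratio of Gjb2 to Gjb6 was 3.59 in Low and 3.99 in High, so Gjb2 gained by 0.41, and this shift varied by an SD of only 0.05 between the 4 animals. The log2 ratio in Low was 3.47, 3.49, 3.59 and 3.78 in Female1, Female2, Male1 and Male2, and in High 3.81, 3.94, 4.02 and 4.20. It was higher in High in each animal, and the order of the animals was the same in both fractions. The mean log2 ratio of Gjb5 to Gjb6 went from −0.15 in Low to −1.47 in High.

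Against Panx1 every connexin gained. The log2 ratio to Panx1 changed by 5.31 for Gjb2, 4.90 for Gjb6, 3.59 for Gjb5 and 2.63 for Gja1. The ratio rose in 4 of 4 animals for each of these 4 connexins.

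**Figure D4:**
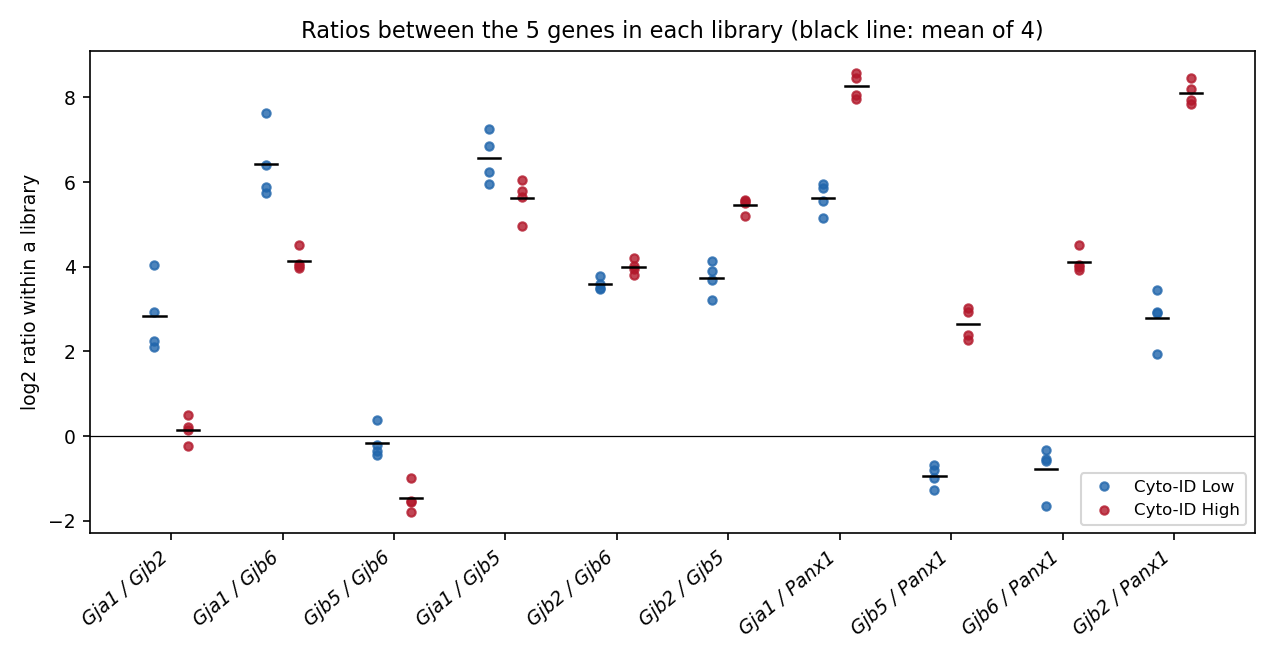
Each column plots the log2 ratio of 2 genes (counts not divided by length) in the 4 Low (blue) and 4 High (red) libraries, with the mean of each fraction as a black line. Low and High do not overlap in any column but Gja1 to Gjb5, and Gjb2 to Gjb6 has the smallest change, 0.41.

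Of 19 genes whose products bind or regulate connexins, all tested, 6 were called higher, 4 lower and 9 not, with a median log2 fold change of 0.19. Over all genes 23.4% were called higher and 25.3% lower, with a median of −0.09, so the list's counts lie near the background. Tjp1 (ZO-1), the scaffold that binds the tail of Cx43, rose by 1.51 with an SE of 0.18 (edgeR, adjusted p 0.000103), from 120 ± 17 to 341 ± 54 CPM. Its relative Tjp3 rose by 2.46 with an SE of 0.21 (edgeR, adjusted p 2.11e-05), with exons that overlap Apba3 on the other strand, and the kinase gene Mapk3 (Erk1) by 1.51 with an SE of 0.21 (edgeR, adjusted p 0.000245).

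Cav1, which encodes the caveolar protein caveolin, fell by 3.02 on the log2 scale with an SE of 0.25 (edgeR, adjusted p 1.84e-05). Nedd4, a ubiquitin ligase of Cx43, fell by 1.12 with an SE of 0.23 (edgeR, adjusted p 0.00265), and Src, a kinase that phosphorylates Cx43, fell by 0.86 with an SE of 0.16 (edgeR, adjusted p 0.00139). Under total counts the list had 8 genes called lower in place of 4.

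Genes that sense or break down extracellular ATP surround Panx1. Of 26 such genes 15 were tested, 4 called higher, 5 lower and 6 not, with a median log2 fold change of −0.31. These counts too lie near the 23.4% and 25.3% of all genes called higher and lower. The 5 lower became 3 with DESeq2, with RLE factors, or without High Female1, Low Female2, Low Male1, High Male1 or Low Male2, and 8 under total counts. P2rx7, the ATP-gated ion channel often studied together with Panx1, went from 25.3 ± 3.6 to 2.93 ± 0.42 CPM (SD, n = 4 each), a change of −3.12 in log2 with an SE of 0.17 (edgeR, adjusted p 1.27e-05). Exons of Mir8115 overlap P2rx7 on the same strand. Entpd2, an ectonucleotidase, fell by 1.09 on the log2 scale with an SE of 0.18 (edgeR, adjusted p 0.000752), with exons that overlap Npdc1 on the same strand. Its relative Entpd3, also an ectonucleotidase, rose from 12.7 ± 0.46 to 27.8 ± 6.6 CPM, by 1.12 in log2 with an SE of 0.18 (edgeR, adjusted p 0.000580).

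The G protein-coupled nucleotide receptors P2ry2 and P2ry4 rose. P2ry2 went from 4.83 ± 2.54 to 56.6 ± 14.5 CPM, in log2 by 3.55 with an SE of 0.41 (edgeR, adjusted p 9.52e-05), and P2ry4 from 0.779 ± 0.585 to 15.9 ± 2.4 CPM, or 4.34 with an SE of 0.53 (edgeR, adjusted p 0.000128). P2ry4 had only 3 counts in Low Male1 and passed the filter on low counts through its High libraries, so its call is a description. Nt5e, the enzyme that makes adenosine from AMP at the cell surface, rose by 2.06 with an SE of 0.20 (edgeR, adjusted p 3.95e-05). Panx1 and P2rx7 were lower in High while P2ry2, P2ry4 and Nt5e were higher, and all 5 kept their direction and call in every alternative in which they were tested. Receptors of 1 kind did not all move alike. P2ry1, another G protein-coupled nucleotide receptor, was called lower, at −0.55 in log2 with an SE of 0.20 (edgeR, adjusted p 0.0454). P2rx4, a relative of P2rx7, was not called, at 0.11 with an SE of 0.15 (edgeR, adjusted p 0.604).

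The genes whose levels followed the 5 most closely were looked up by Pearson r of log2 CPM over the 8 libraries, among 10002 genes with a mean of at least 5 CPM. These r describe likeness only, since the 8 libraries come from 4 animals and fall into the 2 fractions. For Gjb2 they were Acss2, an acetyl-CoA synthetase, Ank, a pyrophosphate transporter gene, and Casp14, a caspase of cornifying keratinocytes, with r of 1.00, 0.999 and 0.999. For Gjb6 they were Gdpd1, Sdr9c7, a dehydrogenase of the epidermal lipid barrier, and Gpr35, with r of 0.999 each. The log2 fold changes of these 6 genes ran from 2.88 (Ank) to 3.73 (Gpr35).

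For Gjb5 the closest were Slc52a3, a riboflavin transporter gene, Lynx1 and Eif2b3, each at r of 0.997 or 0.998, and for Panx1 they were Sertad4, Klhdc8b and Phf12, each at 0.998. Sertad4 and Klhdc8b fell by 3.25 and 3.06 on the log2 scale, more than Panx1, and Phf12 by 1.83. Gja1 was least matched, with Ubxn4 at 0.976, Ints6l at 0.974 and Klhl7 at 0.972. Ubxn4 and Klhl7 had log2 fold changes of 0.55 and 0.41 under TMM and of −0.0082 and −0.15 under total counts. Eif2b3, among the closest to Gjb5, went from 0.65 to 0.075 and was not called under total counts (edgeR, adjusted p 0.625).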

How the data were processed

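Values for the 8 libraries are raw read counts by gene symbol, in 1 table that the authors deposited. STAR 2.7.3, DESeq2 and GRCm38 are named without a role in the submitters' processing notes. The annotation, strandedness and filters are not given in the sources used here. The unit follows from the values, whole numbers with library totals of 26285150 to 29301054.

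Libraries were grouped by the labelled Cyto-ID fraction. Libraries with the same animal in their titles were taken as a pair. Across genes, their deviations from the mean of the fraction correlated at 0.43, 0.32, −0.02 and 0.28 in Female1, Female2, Male1 and Male2, and at −0.37 to 0.35 between animals. The value of 0.35 was that of High Male1 with Low Female1, so the Male1 pair rests on the titles alone. No replicate pair agreed within sampling noise (chi-square per degree of freedom at least 17.7). Spreads are those between the 4 animals.

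R 4.3.3 and edgeR 4.0.16 were used: filterByExpr (17344 genes kept), TMM scaling, the quasi-likelihood functions glmQLFit and glmQLFTest, sex as a covariate, and Benjamini-Hochberg adjustment over all genes at 0.05. Standard errors were derived from the fold change and F. Log2 CPM use a prior count of 2. Alternatives were RLE factors, total counts, other filters, DESeq2 1.42.0, limma-voom (limma 3.58.1), no covariate, the animal as block and each library left out. After the data were seen, leaving out both libraries of Male2 or of Female2 was added. Lengths, positions and exon overlaps came from GENCODE M21 (GRCm38), and promoters from RefSeq. Fits were tested on simulated counts.

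The members and lists were chosen with earlier results of these data known. The genes named were the 5, each family gene tested, the 3 largest called changes each way among partners and ATP genes averaging 5 CPM or more, and the 3 most alike for each of the 5; some of these are not reported here. Dcn, Myl1 and Kdr of the marker lists, Entpd3, P2ry1 and P2rx4 of the ATP list and the untested Gja3, Gjd3, Gjc3, Gja6, Gja10, Gjd2, Gjd4, Gje1 and Panx3 were named outside this rule after their values were seen.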

Additional observations from a re-analysis of the deposited data

Results flagged for a closer look

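In 72 groups of 4 libraries, 1 for each named gene and fraction, the highest and lowest library was set against the others by Dixon's gap ratio. Chance alone passes its 95% limit in about 1 group of 20. Here 2 passed, both in the High library of Male2. Panx1 was at 5.40 CPM there and at 4.44 to 4.54 CPM in the other 3 High libraries. That library had the lowest TMM factor, 0.679, and without this scaling Panx1 was at 3.67 CPM there, within the range of 3.51 to 4.22 CPM of all 4. Entpd2 was at 12.6 CPM in the same library and at 7.14 to 7.85 CPM in the others. Without this scaling it was still the highest, at 8.52 CPM against 6.06 to 7.03 CPM.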

How the results depend on the processing

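Of the 5 genes, 4 kept their direction and call in every alternative, and Gja1 in all but total counts only (0.30, adjusted p 0.184; over the alternatives p ran from 3.95e-07 to 0.184). With the animal as a replicate block Gja1 was at 0.85, Gjb2 at 3.53 and Panx1 at −1.79, and 9336 genes were called in place of 8440; no call of the 5 changed. Without 1 library Gja1 ran from 0.72 to 0.94, Gjb2 from 3.17 to 3.83, Gjb5 from 1.60 to 2.00, Gjb6 from 2.81 to 3.38 and Panx1 from −1.88 to −1.70, and the genes called from 7269 (without Low Male1) to 8106. Of 36 named genes 29 kept direction and call throughout.

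The uncalled genes changed sign. Gja4 was at 0.038 with RLE, 0.030 with DESeq2, 0.27 without Male2, 0.037 without Female2, and −0.45 to 0.21 without 1 library. Gja5 was at 0.37 without Male2, 0.012 without Female2, and −0.73 to 0.25 without 1 library, and Gjc1 at 0.10 without Male2 and −1.09 to 0.021 without 1 library. Under total counts Ubxn4 was at −0.0082 and Klhl7 at −0.15, and Eif2b3 was at 0.075 and no longer called. Without 1 library the sex difference ran from −0.46 to 0.069 for Gja1, −0.59 to 1.08 for Gjb2, −0.15 to 0.74 for Gjb5, −0.53 to 0.95 for Gjb6 and −0.14 to 0.31 for Panx1, and 0 genes passed each time. The cause was not tested.

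ATP genes called lower numbered 5, but 3 with RLE or DESeq2 and 8 with total counts, and called partners that were lower 4, but 8 with total counts. With at least 10 counts in every library 3 other family genes were called higher in place of 5, since fewer were tested. The 9 ratios also passed under total counts and a prior count of 0.5; paired within 4 animals, a sign-flip test cannot pass 0.05. Low counts limit the precision of Panx1 in High and of Panx2, Gja4, Gja5 and Gjc1 in both fractions.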

Other observations

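Of the 10 family genes that did not pass the filter on low counts, Gjd3 (Cx30.2) had 1 to 6 counts per Low library and 7 to 16 per High library. Gjc3 had 6 to 9 counts in Low and 0 to 17 in High, with the 0 in Male2. Gja6 had 4 to 12 counts in Low and 0 to 5 in High, and Panx3, a pannexin of skin and cartilage, had 1 to 6 and 0 to 4. Gja3, Gja10 and Gjd2 had at most 1 count in any library, and Gjd4 and Gje1 had 0 in all 8. None of these was tested.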
